A study of Mus musculus with 4 samples.

Results

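The nuclear genes for subunits of the 5 complexes of oxidative phosphorylation (OXPHOS) were followed in mouse osteoclast precursor cells, cells of the myeloid lineage from which the multinucleated osteoclasts that resorb bone are formed. They were chosen by symbol alone, from the names used for subunits of NADH dehydrogenase (Ndufa, Ndufb, Ndufc, Ndufs and Ndufv with a number), succinate dehydrogenase (Sdha to Sdhd), the cytochrome bc complex (Uqcr), cytochrome c oxidase (Cox with a first digit of 4 to 8) and ATP synthase (Atp5), without pseudogene names. The rule gave 83 of 53801 genes, with 35 in complex I, 4 in complex II, 8 in complex III, 20 in complex IV and 16 in complex V. Ndufa4 and Ndufa4l2 were counted with complex IV, since Ndufa4 encodes a subunit of cytochrome c oxidase in spite of its name. The cells came from 2 wild-type C57BL/6 mice and were numbered 1 and 2. Cells of each number were exposed for 3 h either to DKK1 (Dickkopf-1, a secreted antagonist of canonical Wnt signalling) at 200 ng/ml or to PBS (phosphate-buffered saline), which gave 2 DKK1 libraries and 2 PBS libraries of total RNA. How the precursors were isolated or cultured is not given in the labels, and each preparation stands for 1 mouse.

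Complexes I to IV form the respiratory chain of the inner mitochondrial membrane. Complexes I and II pass electrons from NADH and succinate to ubiquinone, complex III passes them to cytochrome c and complex IV to oxygen. Complexes I, III and IV pump protons, and complex V, the ATP synthase, uses the proton gradient to make ATP. All subunits of complex II are nuclear, while each of the other complexes also holds subunits encoded by mitochondrial DNA. Osteoclasts are rich in mitochondria, and mitochondrial biogenesis accompanies their differentiation.

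The deposited table holds counts per gene, with 53537927 and 46011873 counts in the DKK1 libraries (precursor cells 1 and 2) and 53235399 and 41163663 in the PBS libraries. Levels below are in CPM (counts scaled to the library total, with TMM normalization) unless another scale is named. Of the 83 genes, 80 passed the filter on low counts, as did 17462 genes in all. The other 3 (Cox7b2, Cox8b and Cox8c) had 0 counts in every library, which allows up to 3 counts, or 0.0528 to 0.0776 CPM per library. The cells carried the markers of their label: Csf1r, the M-CSF receptor, had 1969 and 2593 CPM with DKK1 and 2033 and 2575 CPM with PBS, and Tnfrsf11a, which encodes RANK, had 198 and 204 CPM with DKK1 and 199.7 and 197 CPM with PBS. Differences between treatments and between preparations come from 1 edgeR quasi-likelihood fit over all tested genes with a term for each. A gene is called at a Benjamini-Hochberg adjusted p under 0.05. With 2 libraries per treatment the spread rests on 1 residual degree of freedom, which edgeR stabilizes across genes. The p-values therefore set a change against that spread, which is how much the DKK1 change differs between the 2 pairs. For the comparison of preparations it holds no variation in level between mice, since each preparation is 1 mouse.

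Per length, the single genes with the highest means belonged to complexes IV and V. As a set complex V was not the highest. Its median with DKK1 was 41.1 and 30.1 FPKM in precursor cells 1 and 2. The median was 49.5 and 44.6 FPKM for complex II. For complex IV it was 54.3 and 45.1 FPKM, without its low genes that lack an FPKM. Complex III had 43.9 and 31.5 FPKM and complex I had 20.3 and 18.4 FPKM. The authors' FPKM values (fragments scaled to gene length and library size) averaged 200.2 for Cox8a and 184 for Cox6a1, both small structural subunits of complex IV. They averaged 166 for Atp5a1 and 156 for Atp5b, the alpha and beta subunits of the catalytic head of ATP synthase, and 110 for Cox4i1. The tissue-restricted forms were far lower: Cox6a2, known from heart and skeletal muscle, averaged 2.71 FPKM. Cox6b2 had 0.814 (DKK1) and 0.799 FPKM (PBS) in precursor cells 1 and was not listed in the authors' FPKM table for precursor cells 2. Cox4i2, Cox7a1 and Ndufa4l2 were listed in neither table and had at most 23 counts in any library. FPKM depends on the length the authors used, which is not given. Ndufb2 had a mean of 7.56 CPM and of 1.22 FPKM. With counts scaled to the library total without TMM, its FPKM implied a length of 6.27 kb, against 5.63 kb of exons in the GENCODE M21 annotation. The gap is not particular to Ndufb2. The implied length was 1.11 times the GENCODE one for Ndufb2, and also 1.11 times for Sdha and for Atp5b. It was 0.860 times for Cox7a2l, so the ratio was not the same for every gene.

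The first comparison asked whether subunit genes respond to DKK1. None of the 80 tested subunit genes was called in either direction, with a lowest edgeR adjusted p of 0.959. Over all 17462 genes, 9 were called (0.0515%), 7 of them higher (0.0401%) and 2 lower (0.0115%) with DKK1. The log2 change (DKK1 over PBS) was positive for 46 subunit genes and negative for 34, and its median was 0.02, against -0.001 over all tested genes. By complex the median was 0.03 for complex I, 0.02 for complex II, 0.04 for complex III, 0.05 for complex IV and -0.008 for complex V. The 95% interval of the log2 change lay within 1.5-fold in either direction for 71 of 80 subunit genes (88.8%, against 52.6% of all genes) and within 2-fold for 76 (95%). The summed level of all 83 genes was 6107 and 5351 CPM with DKK1 in precursor cells 1 and 2, against 5993 and 5222 CPM with PBS. In each pair the ratio was 1.02. By complex the ratios in precursor cells 1 and 2 were 0.987 and 1.04 for complex I and 1.02 and 1.03 for complex II. They were 0.985 and 1.02 for complex III, 1.11 and 1.08 for complex IV and 1.01 and 0.991 for complex V.

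The sign of the change was the same in both pairs for 32 of the 80 genes (40.0%), against 51.7% of all genes. The DKK1 and PBS libraries did not overlap in CPM for 9 subunit genes that were higher with DKK1, against 7.93% of all genes, and for 1 that was lower (Ndufb9), against 8.31%. An unadjusted p under 0.05 was found for 5 subunit genes, all with positive log2 changes. Of all genes 4.47% had such a p, 2.04% with a higher and 2.43% with a lower level. These are Cox4i1, Ndufa4 and Cox6c of complex IV and Ndufb3 and Ndufv2 of complex I. None of them passed the adjustment over all genes.

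**Figure D1:**
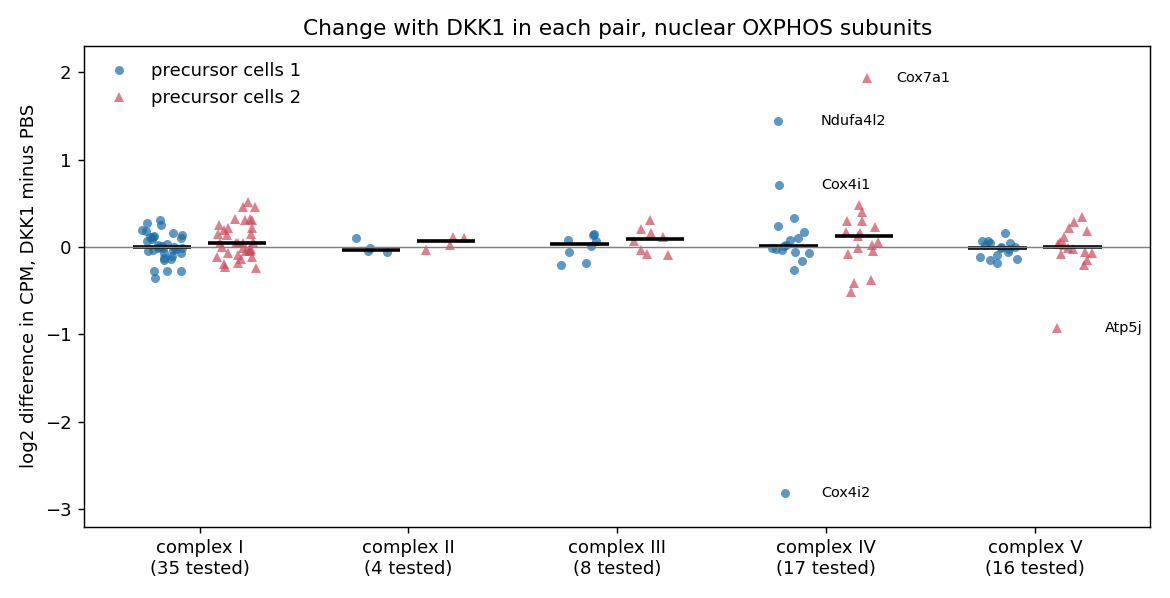
Log2 difference in CPM (DKK1 minus PBS, prior count 2) of each tested nuclear OXPHOS gene, by complex and pair. Each point is 1 gene in precursor cells 1 or 2, and black bars are medians. Most genes lie close to 0 in both pairs, with medians of -0.005 and 0.04. The points far from 0 in complex IV are Cox4i2, Cox7a1 and Ndufa4l2, which have few counts, and Cox4i1 in precursor cells 1, and the lowest point of complex V is Atp5j in precursor cells 2.

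Cox4i1 (chr8:120668222-120674207, mm10) encodes the broadly expressed form of subunit 4, which takes part in the regulation of complex IV by ATP. It had 12527 and 9264 counts with DKK1 in precursor cells 1 and 2 (221 and 213 CPM), against 7618 and 7307 counts with PBS (135 and 189 CPM). The PBS library of precursor cells 1 was the lowest of the 4, and the DKK1 and PBS libraries did not overlap. The pairs differed by 0.71 and 0.17 on the log2 scale. The fitted log2 change was 0.44 with a 95% CI of 0.13 to 0.76 (n = 2 pairs), at an edgeR adjusted p of 0.959. Its exons overlap those of Emc8 and the labels do not say whether the libraries keep strand. Summed with Emc8, the log2 change was 0.35.

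Ndufa4 had 69.1 and 47.8 CPM with DKK1 and 58.7 and 38.9 CPM with PBS, with log2 differences of 0.24 and 0.30 in the 2 pairs. Cox6c, a small subunit of complex IV, had 46.0 and 38.7 CPM with DKK1 and 40.7 and 29.4 CPM with PBS, with differences of 0.18 and 0.40. Cox6c holds 35.8% of the sum with its overlapping and near-identical models, among them Vps13b, and the log2 change was 0.28 for Cox6c alone and 0.08 for the sum. For both genes the treatments overlapped across preparations and parted only within each pair. Ndufb3, an accessory subunit of the membrane arm of complex I, had 28.7 and 26.0 CPM with DKK1, against 23.1 and 21.0 CPM with PBS. Its pairs differed by 0.31 and 0.30, the most even of these 5 genes, and its 95% interval was 0.06 to 0.56 around a log2 change of 0.31 (edgeR adjusted p = 0.959, n = 2 pairs). Ndufv2, a core subunit of the NADH-oxidizing module, had 46.9 and 42.9 CPM with DKK1, against 42.1 and 34.3 CPM with PBS. Ndufs4, an accessory subunit near the same module, had 1816 and 1732 counts with DKK1, against 1674 and 1122 counts with PBS. Neither Ndufv2 nor Ndufs4 overlapped between treatments, but their pairs differed by 0.16 and 0.32 and by 0.11 and 0.46.

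The 4 genes of complex II were nearly level between treatments. Sdha, the flavoprotein that oxidizes succinate, had 266 and 243 CPM with DKK1 and 247 and 239 CPM with PBS. The log2 changes were 0.07 for Sdha, -0.03 for Sdhb, 0.02 for Sdhc and 0.02 for Sdhd, and every 95% interval lay within 1.5-fold. In complex III, Uqcrc1, a core protein, had a log2 change of -0.07, Uqcr10 0.03, Uqcr11 0.13 and Uqcrh 0.16. In complex V the changes of Atp5a1, Atp5b and Atp5g3 were 0.02, -0.007 and 0.001.

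Atp5j, which encodes a coupling factor in the stalk of ATP synthase, had pairs of opposite sign. It had 47.7 and 25.1 CPM with DKK1 in precursor cells 1 and 2, against 42.6 and 47.7 CPM with PBS. The DKK1 library of precursor cells 2 alone stood low, with differences of 0.16 and -0.93 in the 2 pairs and a log2 change of -0.34 (95% CI -0.95 to 0.26). Atp5j overlaps Gabpa in its exons and holds 39.5% of their summed counts. Summed with Gabpa the log2 change was -0.08.

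Genes of the same pathway that the name rule does not cover gave 0 calls for DKK1 as well. All 13 mitochondrially encoded subunits were tested, and their log2 changes had a median of 0.03 and ran from -0.02 (mt-Nd1) to 0.13 (mt-Nd4l). Assembly factors of all 5 complexes were tested (16 for complex I, 4 for complex II, 6 for complex III, 21 for complex IV and 4 for complex V), and none was called. Foxred1, a complex I assembly factor, had 19.6 and 30.8 CPM with DKK1 and 16.3 and 24.6 CPM with PBS, a log2 change of 0.29. Among the regulators of mitochondrial biogenesis, 12 of 13 were tested. Pprc1, a coactivator of the PGC-1 family, had 76.6 and 60.9 CPM with DKK1 and 87.6 and 73.8 CPM with PBS, a log2 change of -0.23, and neither it nor Foxred1 passed the adjusted test (edgeR adjusted p = 0.959 for each). Ppargc1a, which encodes PGC-1alpha, had 4 and 0 counts with DKK1 and 9 and 0 with PBS and was not tested, while Ppargc1b, known for its part in mitochondrial biogenesis in osteoclasts, had 3.58 and 4.30 CPM with DKK1 and 3.97 and 5.10 CPM with PBS. Pet117, named for complex IV assembly, had 1 and 299 counts with DKK1 in precursor cells 1 and 2, against 654 and 1 with PBS, so its pairs went opposite ways; it was singled out after its values were seen.

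The second comparison sets precursor cells 2 against precursor cells 1 over both treatments. It describes 2 preparations from 2 mice, neither of which was repeated. Of the 80 subunit genes, 21 fell and 1 rose in precursor cells 2. Over all tested genes, 2780 fell (15.9%) and 3125 rose (17.9%). The subunit genes' log2 change was negative for 63 and positive for 17, with a median of -0.20, against -0.003 over all genes. The libraries of the 2 preparations did not overlap in CPM for 47 genes that were lower in precursor cells 2, against 35.3% of all genes, and for 7 that were higher, against 33.7%. The log2 difference was negative for 56 of 80 genes within the DKK1 libraries and for 67 of 80 within the PBS libraries.

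All 22 called genes kept their direction in every alternative run, but the number of calls differed. The numbers that follow count every subunit gene called in a fit, not only those among the 22. DESeq2 called 12 subunit genes, and edgeR on all genes, with no filter, called 9. Leaving out 1 library, in a fit without the pairing, left 13 called without the DKK1 library of precursor cells 1, 8 without that of precursor cells 2, 10 without the PBS library of precursor cells 1 and 10 without that of precursor cells 2. Atp5a1, Atp5g1, Atp5g3, Uqcr11, Cox7b and Ndufb11 were called in each of these fits. In bulk RNA, fewer cells of a type and less RNA per cell cannot be told apart.

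Cell type markers moved between the preparations as well, where 17.9% of all tested genes rose and 15.9% fell. All 10 neutrophil markers rose in precursor cells 2, where they summed to 9951 CPM (DKK1) and 9839 CPM (PBS), against 5251 and 5391 CPM in precursor cells 1. Of 10 B cell markers 9 fell, with sums of 239.6 and 249 CPM in precursor cells 2, against 361 and 492 CPM in precursor cells 1, and Vpreb1 was at 0 counts in precursor cells 2. Megakaryocyte markers fell for 3 of 6 genes, with sums of 1037 and 1028 CPM in precursor cells 2, against 1562 and 1653 CPM in precursor cells 1. Erythroid markers rose for 5 of the 7 tested of 9, with sums of 129 and 167 CPM in precursor cells 2, against 78.5 and 109 CPM in precursor cells 1, and Klf1 was at 0 in precursor cells 2. Mast cell and basophil markers rose for 3 of 6, with sums of 28.6 and 39.4 CPM in precursor cells 2, against 21.1 and 25.1 CPM in precursor cells 1. T and NK cell and stromal markers had 1 call in each direction. Of the 14 gene entries for monocyte and precursor markers, 6 rose and 3 fell. Between DKK1 and PBS 0 of these markers were called. An unadjusted edgeR p under 0.05 was found for 5 of 10 B cell and 4 of 7 tested erythroid markers. All were lower with DKK1, as were 2.43% of all genes at such a p. Median log2 differences in the 2 pairs were -0.57 and 0.04 for B cell and -0.49 and -0.39 for erythroid markers. Each other list had at most 2 such markers in either direction. The part of these cell type markers in the subunit genes' differences was not tested.

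**Figure D2:**
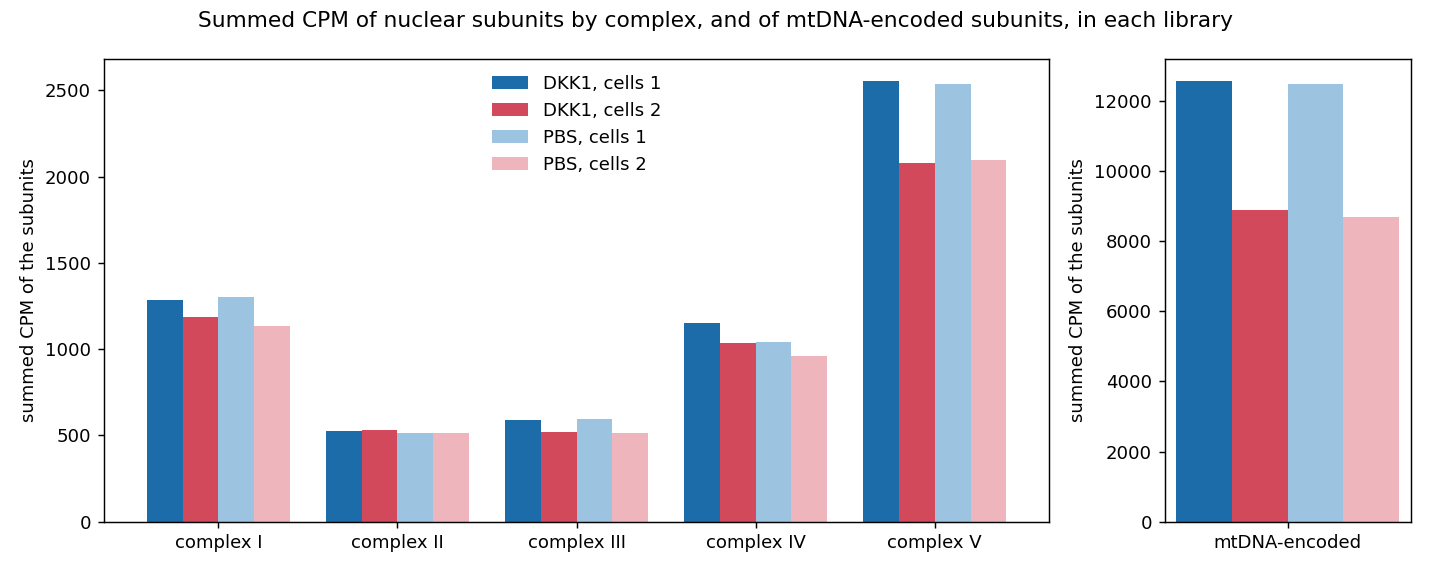
Summed CPM of the nuclear subunit genes of each complex (left) and of the mitochondrially encoded subunits (right), with 1 bar per library. The complex V bars reach 2079 (DKK1) and 2097 CPM (PBS) in precursor cells 2, against 2557 and 2538 CPM in precursor cells 1, while complex II lies between 515 and 529.8 CPM in all 4 libraries.

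Among the 5 complexes, the sum of complex V had the lowest ratio between preparations under both treatments. Its 16 genes added up to 2079 CPM (DKK1) and 2097 CPM (PBS) in precursor cells 2, against 2557 and 2538 CPM in precursor cells 1, which are ratios of 0.813 and 0.826. Complex II had ratios of 1.01 and 0.999. The ratios lay between these for complex I (0.924 with DKK1 and 0.873 with PBS), complex III (0.890 and 0.860) and complex IV (0.897 and 0.922). The median log2 change was -0.19 for complex I, 0.003 for complex II, -0.25 for complex III, -0.22 for complex IV and -0.27 for complex V.

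In complex V, 6 of 16 genes fell, against 15.9% of all tested genes. Atp5a1 had 472 and 479 CPM in precursor cells 2, against 680.2 and 649.6 CPM in precursor cells 1. The preparations did not overlap, and the log2 change was -0.48 (95% CI -0.60 to -0.37; edgeR adjusted p = 0.000841, n = 2 libraries each). Atp5b, its partner in the catalytic head and the most counted subunit, had 658 and 683 CPM in precursor cells 2 and 798 and 776 CPM in precursor cells 1, a log2 change of -0.23 (edgeR adjusted p = 0.0111). Atp5d, the delta subunit of the central stalk, had a log2 change of -0.30.

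The c subunit of the rotating ring is encoded by 3 genes with the same mature protein, Atp5g1, Atp5g2 and Atp5g3. All 3 fell in precursor cells 2. Atp5g1 had 35.3 and 37.1 CPM there, against 52.8 and 51.2 CPM in precursor cells 1 (log2 change -0.52, edgeR adjusted p = 0.00674). Atp5g2 had 62.5 and 53.8 CPM in precursor cells 2, against 79.9 and 83.5 CPM in precursor cells 1 (log2 change -0.49, edgeR adjusted p = 0.0108). Atp5g3 had 85.0 and 84.0 CPM in precursor cells 2, against 109.7 and 111 CPM in precursor cells 1 (log2 change -0.38, edgeR adjusted p = 0.00754). Atp5g1 and Atp5g2 have near-identical processed pseudogenes with counts of their own, and summed with them the log2 changes were -0.57 and -0.49. Atp5h, a subunit of the peripheral stalk, was not called, with 81.4 and 72.0 CPM in precursor cells 2 and 73.7 and 73.9 CPM in precursor cells 1, a log2 change of 0.05 (edgeR adjusted p = 0.656).

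**Figure D3:**
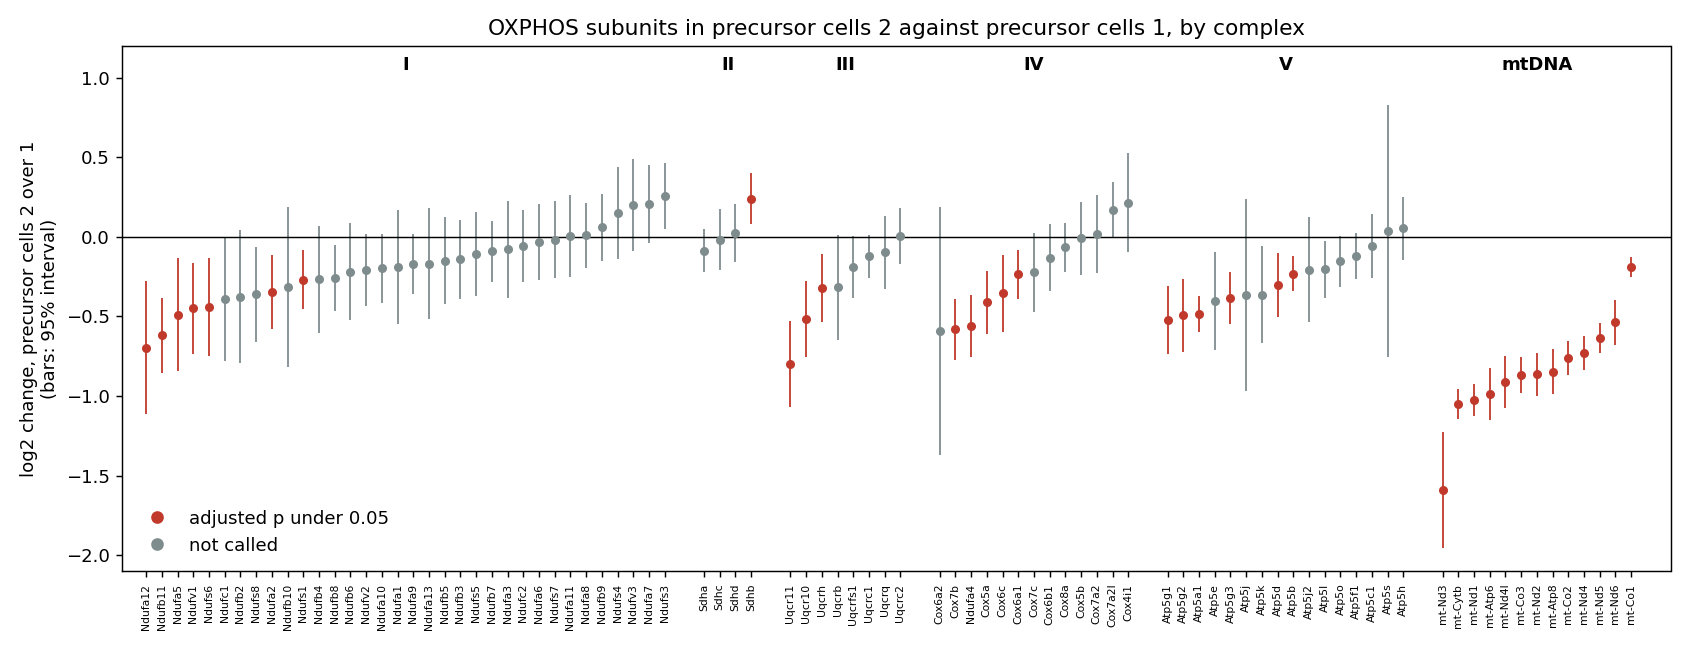
Log2 change of precursor cells 2 over precursor cells 1 with its 95% interval for each nuclear subunit gene with a mean of at least 1 CPM (1 gene of complex I is not shown), by complex, and for the mitochondrially encoded subunits. Red points are called at an adjusted p under 0.05. Of the called nuclear genes 21 lie below 0 and 1, Sdhb, lies above it.

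In complex III, 3 of 8 genes, all of them small subunits, fell, against 15.9% of all tested genes. Uqcr11 (chr10:80402997-80406830, mm10), the smallest subunit of the complex, had 17.5 and 15.2 CPM in precursor cells 2, against 29.1 and 27.7 CPM in precursor cells 1. Its log2 change of -0.80 (95% CI -1.07 to -0.53; edgeR adjusted p = 0.00349, n = 2 libraries each) was the most negative among the called subunit genes. Uqcr10 had 35.1 and 37.4 CPM in precursor cells 2, against 54.3 and 49.4 CPM in precursor cells 1 (log2 change -0.52), and Uqcrh, the hinge protein that helps cytochrome c to dock, had a log2 change of -0.32. Uqcrc1 was not called, with 186 and 196 CPM in precursor cells 2 and 203 and 212 CPM in precursor cells 1 (log2 change -0.12, edgeR adjusted p = 0.140).

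In complex I, 7 of 35 genes fell, against 15.9% of all tested genes. They were the core subunits Ndufs1 and Ndufv1 and the accessory subunits Ndufa2, Ndufa5, Ndufa12, Ndufb11 and Ndufs6. Ndufa5 is outside the rule for named genes and completes the list. Ndufv1, which holds the binding site for NADH, had 26.9 and 26.1 CPM in precursor cells 2, against 32.8 and 39.9 CPM in precursor cells 1 (log2 change -0.45, edgeR adjusted p = 0.0303). Ndufb11, an X-linked subunit of the membrane arm, had 23.1 and 23.2 CPM in precursor cells 2, against 35.6 and 35.5 CPM in precursor cells 1 (log2 change -0.62, edgeR adjusted p = 0.00524). Ndufb11 overlaps Rbm10 and holds 42.3% of the sum with its partner models, and the sum had a log2 change of -0.27. Ndufs1 likewise overlaps Eef1b2, which had 106 and 94.7 CPM in precursor cells 2 and 166 and 166 CPM in precursor cells 1. The changes of Ndufs1 (-0.27), Ndufs6 (-0.44, which overlaps Mrpl36) and Ndufa2 (-0.35, which overlaps Tmco6) cannot be told apart from those partners without strand.

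Ndufa12, an accessory subunit of the hydrophilic arm (chr10:94198720-94221443), had 704 and 502 counts in precursor cells 2, against 1217 and 1472 counts in precursor cells 1. The processed pseudogene Gm15920, which shares 400 of its 402 bases with the Ndufa12 transcript, had 265 and 572 counts in precursor cells 2, against 1377 and 1463 counts in precursor cells 1. Between the DKK1 and PBS libraries of precursor cells 2, gene and pseudogene went in opposite directions. The log2 change of Ndufa12 was -0.70 (edgeR adjusted p = 0.0254) and that of the sum -0.97.

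In complex II, Sdhb, the iron-sulfur subunit (chr4:140961203-140979193), was the 1 subunit gene that rose in precursor cells 2. It had 102 and 105 CPM there, against 87.3 and 88.3 CPM in precursor cells 1, a log2 change of 0.24 (95% CI 0.08 to 0.40; edgeR adjusted p = 0.0371, n = 2 libraries each). The preparations did not overlap, but the call was lost with DESeq2, with upper-quartile scaling, without the filter on low counts and without any 1 library. Sdha, Sdhc and Sdhd had log2 changes of -0.09, -0.02 and 0.02 and were not called.

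In complex IV, 5 of the 17 tested genes fell, against 15.9% of all tested genes. Cox7b, an X-linked small subunit, had 47.7 and 43.7 CPM in precursor cells 2, against 70.1 and 66.6 CPM in precursor cells 1 (log2 change -0.58, edgeR adjusted p = 0.00302). Ndufa4, whose values by library are given above, had a log2 change of -0.56, Cox5a -0.41, Cox6c -0.35 and Cox6a1 -0.24. Cox6c overlaps Vps13b and holds 35.8% of their sum.

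Cox5a and Cox5b are different subunits of complex IV despite their names, and each complex holds both. Cox5a had 111 and 95.1 CPM in precursor cells 2, against 136 and 138 CPM in precursor cells 1, while Cox5b had 90.5 and 89.4 CPM in precursor cells 2, against 101 and 80.7 CPM in precursor cells 1. Both are non-catalytic subunits on the matrix side, and the log2 change of Cox5b was -0.009 (edgeR adjusted p = 0.953). Cox6b1, at 72.5 and 64.6 CPM in precursor cells 2 and 73.5 and 76.6 CPM in precursor cells 1, was not called (log2 change -0.13). Cox8a, at 117 and 119 CPM in precursor cells 2 and 120.3 and 126 CPM in precursor cells 1, was not called either (log2 change -0.06). Other subunits of complex IV have tissue-restricted paralogs. Cox6a2 had 1.35 to 2.54 CPM and Cox6b2 0.667 to 0.987 CPM over the 4 libraries. Cox4i2, a form known from lung and from low oxygen, had 19 and 23 counts in precursor cells 2, against 0 and 14 in precursor cells 1. Cox7a1, a form of heart and muscle, had 5 and 0 counts in precursor cells 2, against 18 and 22 in precursor cells 1. Ndufa4l2, known as a target of hypoxia-inducible factor, had 12 and 16 counts in precursor cells 2, against 4 and 0 in precursor cells 1. None of these low genes was called.

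Cox7a2l, a relative of Cox7a1 and Cox7a2, has a near-identical processed pseudogene. The gene (also known as SCAF1) encodes a protein that joins complexes III and IV in supercomplexes. It had 3093 and 2847 counts in precursor cells 2, against 3612 and 3682 counts in precursor cells 1, which is 71.1 and 73.6 CPM in precursor cells 2, against 63.7 and 65.2 CPM in precursor cells 1. The log2 change was 0.17 (edgeR adjusted p = 0.128). The processed pseudogene Gm6969 (chr12:24638669-24639010, minus strand) had 22 and 20 counts in precursor cells 2, against 2398 and 2561 counts in precursor cells 1, a log2 change of -6.41. Between DKK1 and PBS the log2 changes were -0.04 for Cox7a2l and -0.10 for Gm6969, and neither was called. Summed over gene and pseudogene, precursor cells 2 had 71.6 and 74.1 CPM, against 106 and 110.5 CPM in precursor cells 1. The log2 change of the sum was -0.57 (edgeR adjusted p = 0.00177), so the direction turned. Cox7a2 had 37.0 and 35.6 CPM in precursor cells 2 and 33.8 and 37.9 CPM in precursor cells 1, a log2 change of 0.02 (edgeR adjusted p = 0.904).

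The 2 sequences are nearly identical. Over the 342 bases of Gm6969, 336 align with the Cox7a2l transcript, 334 are identical, 2 are substitutions, and 6 bases are present in the pseudogene only. The stretch around those 6 bases is shown because it separates the 2 models. Both lie on the minus strand of GRCm38 in GENCODE M21, that of Cox7a2l spliced from chr17:83504100-83504114 and chr17:83502699-83502737 and that of Gm6969 at chr12:24638765-24638824. The capitals mark the bases that only the pseudogene has. The first lower-case base after them is a substitution, t in Cox7a2l and a in Gm6969.
Cox7a2l: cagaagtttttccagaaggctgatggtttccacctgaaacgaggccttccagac
Gm6969: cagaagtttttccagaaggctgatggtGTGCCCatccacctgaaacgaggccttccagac
The reference genome is that of C57BL/6J, a substrain known to carry a shorter form of Cox7a2l than many other mouse strains. Which form of Cox7a2l the cells of each mouse carried was not tested.

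**Figure D4:**
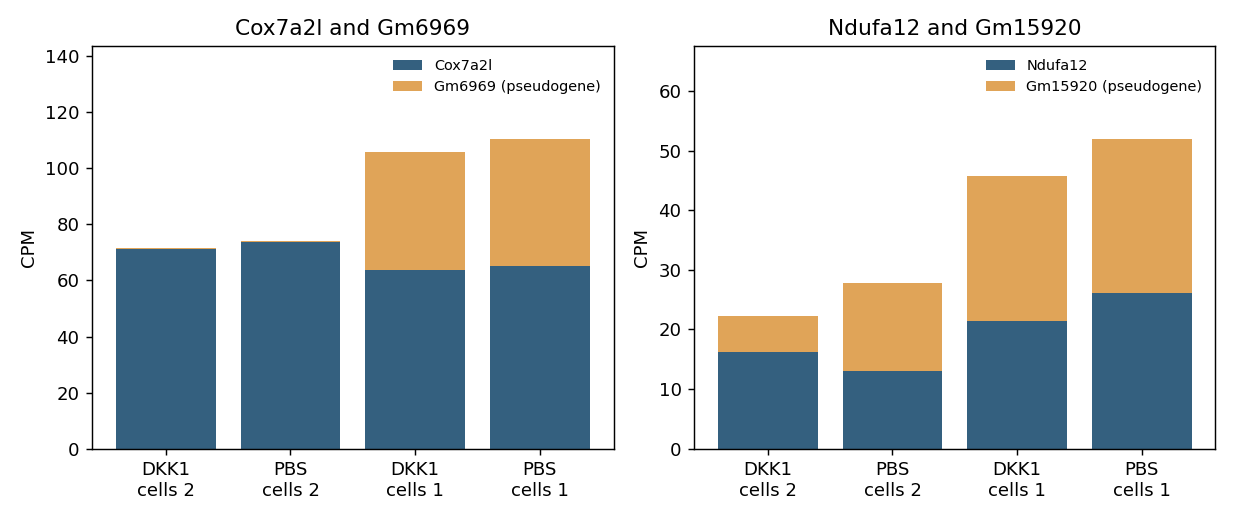
CPM of Cox7a2l with the processed pseudogene Gm6969 and of Ndufa12 with Gm15920 in each library, stacked. Gm6969 is at 0.506 (DKK1) and 0.517 CPM (PBS) in precursor cells 2, against 42.3 and 45.3 CPM in precursor cells 1, and Cox7a2l itself is at 63.7 to 73.6 CPM in all 4 libraries.

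The mitochondrially encoded subunits of complexes I, III, IV and V were lower as well. All 13 fell in precursor cells 2, with a median log2 change of -0.86, from -0.19 for mt-Co1, the catalytic subunit of complex IV, to -1.59 for mt-Nd3 of complex I. Their sum was 8876 CPM (DKK1) and 8693 CPM (PBS) in precursor cells 2, against 12577 and 12491 CPM in precursor cells 1. Cycs, the mobile carrier cytochrome c, rose, with 125 and 113 CPM in precursor cells 2, against 87.1 and 79.1 CPM in precursor cells 1 (log2 change 0.52, edgeR adjusted p = 0.00242). Cyc1, a catalytic subunit of complex III, and Ndufab1, the acyl carrier protein of complex I, were not called (log2 changes -0.02 and -0.09).

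Assembly factors went both ways, and over all tested genes 17.9% rose and 15.9% fell. Of 16 tested for complex I, Foxred1 rose (log2 change 0.62), and Acad9 (-0.48) and Ndufaf2 (-0.93) fell. For complex II, 1 of 4 fell (Sdhaf1, -0.69), for complex III 1 of 6 (Uqcc2, -0.60), and for complex V 1 of 4 (Tmem70, -0.41). Of 21 tested for complex IV, Coa5 (0.53) and Sco1 (0.61) rose and Cox10 (-0.39) fell. Of the 12 regulators tested, 3 fell. Myc, a transcription factor that drives growth and mitochondrial biogenesis, had 13.7 and 13.3 CPM in precursor cells 2, against 53.0 and 54.0 CPM in precursor cells 1 (log2 change -1.98). Gabpa, the DNA-binding subunit of the factor also called NRF2, and Pprc1 had log2 changes of -0.30 and -0.29. Nrf1, Esrra, Yy1 and Tfam were not called, with log2 changes of 0.15, 0.10, -0.12 and 0.03.

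Promoters of subunit genes are known for binding sites of NRF1, GABPA, ERR factors and YY1, so their letters were searched in RefSeq promoters (GRCm38.p6, 250 bases before to 50 after the start) on both strands. A promoter was found for 68 of the 83 genes. GCGCATGCG, the core of the NRF1 element, was in 8 of them (11.8%), against 1.95% of the 27025 genes with a promoter. CCGGAAGT, a GABPA core, was in 5 (7.35%), against 4.31%. AAGATGGC, a YY1 core, was in 10 (14.7%), against 3.19%, and TCAAGGTCA, an ERR element, was in 2 (2.94%), against 0.466%. A match is a description of letters and not a site. The promoters of Uqcr11 and Atp5g2, which fell in precursor cells 2, are shown as examples of the GABPA letters (Uqcr11, which also holds those of NRF1, left in lower case) and the NRF1 letters (Atp5g2, 1 match on each strand that overlap), in capitals, on the minus strand of chr10:80406772-80407071 and chr15:102670998-102671297.
Uqcr11: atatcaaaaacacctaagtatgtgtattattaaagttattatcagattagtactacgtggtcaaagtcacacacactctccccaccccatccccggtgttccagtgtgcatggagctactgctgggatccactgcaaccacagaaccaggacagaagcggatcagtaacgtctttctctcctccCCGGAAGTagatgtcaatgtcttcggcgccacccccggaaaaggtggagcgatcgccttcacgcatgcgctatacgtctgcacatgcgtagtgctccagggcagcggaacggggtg
Atp5g2: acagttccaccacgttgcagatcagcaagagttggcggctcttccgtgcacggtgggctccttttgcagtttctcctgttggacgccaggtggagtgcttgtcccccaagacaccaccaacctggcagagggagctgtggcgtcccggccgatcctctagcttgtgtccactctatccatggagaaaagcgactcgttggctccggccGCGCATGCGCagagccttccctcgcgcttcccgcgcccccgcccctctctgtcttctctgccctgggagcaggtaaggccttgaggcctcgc
Of the 8 genes with the NRF1 letters, Cox6a1, Atp5g2 and Uqcr11 were called lower in precursor cells 2. So were Uqcr11 and Uqcrh of the 5 with the GABPA letters. Of the 10 with the YY1 letters Ndufs6 was called lower, and of the 2 with the ERR letters Atp5g3. The others were not called. Of all 80 tested subunit genes 21 were called lower, against 15.9% of all tested genes. A link between these letters and the difference between preparations was not tested.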

How the data were processed

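RNA was measured by sequencing in 4 libraries, 2 with DKK1 and 2 with PBS, grouped by the labels. Per the submitters' processing notes, fastp and HISAT2 were used with the mm10 build. The counting program, its annotation and its use of strand are not given. The deposited table holds whole-number counts per gene, and the authors' deposited tables for each pair hold FPKM, scaled by the authors to length and library size, which were used only to compare levels between genes.

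The 2 libraries with the same number of precursor cells were taken as a pair, since the labels take both treatments from the cells of 2 mice. Libraries with the same number deviated together from the means of their treatment (correlation 0.726), and principal component 1 (76.1% of the variance) parted the preparations. Genes were filtered with filterByExpr, scaled with TMM and fitted with edgeR 4.0.16 (quasi-likelihood, R 4.3.3) with preparation and treatment as terms and 1 residual degree of freedom. P-values are two-sided and adjusted by Benjamini-Hochberg over 17462 genes. Differences within a pair are log2 CPM with a prior count of 2. Intervals of log2 changes are 95% intervals of the fit. Counts limit precision at the low end, where 3 counts are the floor of a gene at 0, and intervals and floors cover no error before sequencing.

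Exon overlap (either strand) and positions come from GENCODE M21 (GRCm38), which holds all 83 genes. BLAST 2.17.0 was used to find near-identical models (95% identity over at least 100 bases and 50% of the shorter transcript), and 46 of the 83 genes have a partner model of either kind. Sequences were taken from GENCODE M21 transcripts and from RefSeq promoters. No other table columns held samples of the series that were left unused (0 columns).

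On simulated counts for DKK1 over PBS with changes at known folds, the fit over 16835 genes recovered 22.4% of the genes changed 1.5-fold, 64.2% of those changed 2-fold and 89.4% of those changed 4-fold. It made 5 false calls. The changed genes were drawn only from those above a minimum mean count, and the simulated spread followed the trend with level, not each gene's own spread.

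Named genes are, per complex, the 3 with the smallest p for DKK1, the 2 with the smallest p between preparations, the one with the highest mean CPM, up to 6 called genes, the 4 genes of complex II and sets of paralogs or similarly named subunits, plus up to 2 per list of other pathway genes. 1 gene that this rule names is not reported here. Gene entries that share 1 symbol (Itgam) were kept apart by ID. The members, the lists and the tests were chosen with earlier results of these data known. Alternatives were DESeq2 1.42.0, limma-voom (limma 3.58.1), other scaling, no filter and a stricter one, legacy quasi-likelihood, no pairing, summed models and leaving out each library.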

Additional observations from a re-analysis of the deposited data

How the results depend on the processing

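In the comparison of DKK1 with PBS, the number of subunit genes called was 0 in edgeR (5 with an unadjusted p under 0.05) and 0 in every alternative, including DESeq2 (2 with an unadjusted p under 0.05). The number of genes called over the whole table, 9, depended on the method: 5 with upper-quartile scaling, 15 with a stricter filter, 0 with no filter, 46 with DESeq2, 2 with limma-voom, 3 with legacy quasi-likelihood and 0 to 0 when 1 library was left out. Without the pairing (no replicate block), 0 genes were called, 0 of them subunit genes. The subunit genes' median log2 change of 0.02 ran from -0.083 to 0.15 when 1 library was left out. In those fits, without the pairing, the treatments no longer hold the same preparations. The DKK1 change then cannot be told apart from the difference between preparations, so this range is not a measure of how stable the DKK1 change is. Between the preparations, 22 subunit genes were called. The number was 25 without the pairing, 9 with no filter, 12 with DESeq2, and 8 to 13 when 1 library was left out, and all 22 kept their direction throughout. Over all genes 5905 were called, 3507 with no filter and 3194 to 4570 when 1 library was left out. The median log2 change of -0.20 was -0.25 with upper-quartile scaling, which moved the median of all genes to -0.05, and -0.207 to -0.161 when 1 library was left out. Fits that leave out a library were made without the pairing, and a treatment left with 1 library is assumed to vary like the other. Summing overlapping and near-identical models turned the sign of the difference between preparations for 5 subunit genes. The sums were called for Cox7a2l (0.17 alone, -0.57 summed) and Ndufa4l2 (-0.63 summed). Those of Ndufb2 (-0.38 alone, 0.25 summed, edgeR adjusted p = 0.0515, with Ndufb2 13.9% of the sum), Ndufa3 and Uqcrc2 were not. For DKK1 it turned the sign of 5 genes (Ndufa2, Ndufa3, Uqcrb, Atp5g1 and Atp5g2), none of them called, with Ndufa3 at 0.09 alone and -0.25 summed. The sum of Ndufa4l2 is almost wholly Shmt2, of which Ndufa4l2 is 0.320%. The causes of the other differences between methods were not tested. With 2 libraries per treatment, 22.4% of simulated 1.5-fold changes with DKK1 were recovered. The changed genes were drawn from those above a minimum mean count, so the rate is not one for the subunit genes. Smaller changes were not simulated.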
